A study of Mus musculus with 16 samples.

Results

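The cell cycle and mitosis genes are 41 genes taken by name, from the helicase that opens replication origins to the motors and kinases that separate chromosomes. All 41 names had a probe set assigned to exactly that symbol, among the 19531 genes the array measured, and where a gene had several probe sets the brightest by its 16-array mean stood for it. The arrays compared regulatory T cells (Treg, CD3+CD4+GFP+) with conventional CD4+ T cells (Tconv, CD3+CD4+GFP-) from the spleens of 6 week old male mice. Every mouse carried a GFP reporter at Foxp3, the gene of the transcription factor that defines Treg, either as a Foxp3-GFP fusion protein (fusion) or as a separate GFP behind an internal ribosome entry site (ires, labelled Foxp3-IRES-GFP), on the B6 or the NOD background. This gave 8 groups of 2 arrays: fusion and ires, in B6 and NOD, for Treg and for Tconv. No group lacked a reporter allele, the reporter both made the lines and sorted the cells, and the labels did not say how many mice gave the RNA of an array, so p-values measure the spread between these samples, which may be technical. NOD is the strain that develops autoimmune diabetes spontaneously, and B6 is the usual laboratory reference strain.

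A dividing cell first loads the Mcm2 to Mcm7 helicase onto replication origins, then makes nucleotides and copies its DNA, then condenses chromosomes, attaches them to the spindle through kinetochores and pulls them apart under cyclin-dependent, polo-like and aurora kinases. Many genes of replication are switched on by E2F factors around the entry into S phase, and many genes of G2 and mitosis are switched on later through a promoter element called CHR, often beside CCAAT boxes bound by NF-Y. Most splenic T cells are at rest, and Treg are known to hold a larger cycling fraction than Tconv at steady state. In RNA from sorted bulk cells, more cycling cells and more of these transcripts per cycling cell cannot be told apart.

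Promoter windows from RefSeq (build GRCm38.p6, 250 bases before to 50 after the start site, read on the gene's strand) were found for 35 of the 41 genes, in 37 windows. Tpx2, Ccna2, Kif20a, Stmn1, Aurkb and Mcm4 had no window in the table. The 5 windows printed here show how the elements are arranged in a licensing gene (Mcm6, chr1:128359656-128359955, minus strand), a kinase gene with all 3 elements (Cdk1, chr10:69352863-69353162, minus strand), a mitotic cyclin gene (Ccnb2, chr9:70421505-70421804, minus strand), the proliferation marker gene (Mki67, chr7:135716330-135716629, minus strand) and a kinesin gene that was called in the comparison of reporter alleles (Kif15, chr9:122950831-122951130, plus strand). Capitals mark matches on either strand to E2F (TTTGGCGC, TTTCCCGC, TTTGCCGC or TTTCGCGC), CHR (TTTGAA) and CCAAT, so the reverse matches read, for example, GCGCCAAA, TTCAAA and ATTGG.
Mcm6: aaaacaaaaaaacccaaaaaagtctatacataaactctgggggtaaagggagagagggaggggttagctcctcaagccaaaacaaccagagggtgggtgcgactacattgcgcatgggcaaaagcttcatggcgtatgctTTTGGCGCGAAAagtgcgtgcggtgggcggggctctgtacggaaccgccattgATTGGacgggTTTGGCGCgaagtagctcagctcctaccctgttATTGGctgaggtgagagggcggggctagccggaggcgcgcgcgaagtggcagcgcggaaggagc
Cdk1: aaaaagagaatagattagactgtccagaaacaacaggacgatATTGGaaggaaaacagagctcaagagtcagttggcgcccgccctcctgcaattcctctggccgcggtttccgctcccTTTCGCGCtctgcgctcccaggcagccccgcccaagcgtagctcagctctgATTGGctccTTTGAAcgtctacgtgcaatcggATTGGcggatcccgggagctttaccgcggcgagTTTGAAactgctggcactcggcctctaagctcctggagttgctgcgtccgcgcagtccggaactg
Ccnb2: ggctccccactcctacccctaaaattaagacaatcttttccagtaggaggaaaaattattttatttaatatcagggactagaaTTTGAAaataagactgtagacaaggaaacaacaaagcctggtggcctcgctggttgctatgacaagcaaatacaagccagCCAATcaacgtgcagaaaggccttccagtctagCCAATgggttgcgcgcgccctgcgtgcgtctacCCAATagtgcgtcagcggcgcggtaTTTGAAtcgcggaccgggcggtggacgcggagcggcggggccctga
Mki67: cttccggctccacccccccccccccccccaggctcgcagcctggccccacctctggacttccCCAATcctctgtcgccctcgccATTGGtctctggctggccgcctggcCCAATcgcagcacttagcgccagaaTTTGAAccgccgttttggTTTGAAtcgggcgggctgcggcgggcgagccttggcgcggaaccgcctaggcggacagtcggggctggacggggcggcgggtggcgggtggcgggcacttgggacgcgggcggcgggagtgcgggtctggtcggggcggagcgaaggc
Kif15: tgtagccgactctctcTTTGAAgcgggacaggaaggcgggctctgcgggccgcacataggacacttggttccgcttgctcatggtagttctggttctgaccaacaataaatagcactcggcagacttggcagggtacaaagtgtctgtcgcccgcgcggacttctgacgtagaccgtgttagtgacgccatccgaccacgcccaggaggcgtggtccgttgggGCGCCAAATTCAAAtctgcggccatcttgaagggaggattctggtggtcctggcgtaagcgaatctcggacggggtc

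The Mcm6 window held E2F matches that began 110, 106 and 47 bases before the start site, of which the first pair overlap, and CCAAT matches at 57 and 14 bases. In the Cdk1 window an E2F match began 131 bases before the start, CHR matches began at 71 and 15 bases, and CCAAT matches at 208, 80 and 48 bases. The Ccnb2 window had CCAAT matches at 87, 54 and 21 bases before the start, 1 CHR match at 167 bases before it and 1 just downstream of it. Mki67 carried CHR matches at 116 and 98 bases and CCAAT matches at 188, 166 and 141 bases. In Kif15 the E2F match at 27 bases ran directly into a CHR match at 19 bases, and another CHR match began at 234 bases. Over the members, E2F letters stood in 16.2% of windows against 2.26% of all 32851 windows in the table, CHR letters in 48.6% against 17.9%, and CCAAT in 70.3% against 37.4%. The 6 genes with E2F letters were Mcm3, Mcm5, Mcm6, Mcm7, Cdk1 and Kif15. CHR letters were found in 4 of 5 windows of the G2 and mitotic cyclins and kinases and 5 of 6 windows of the kinesin and spindle genes, against 1 of 8 windows of the licensing genes and 0 of 5 of the nucleotide and DNA synthesis genes. Some genes had more than 1 window. Counted by gene, the kinesin and spindle group had 4 of 5 and the licensing group 1 of 7. A match describes these letters only and is not evidence of a bound site.

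The values are deposited RMA intensities, analysed on the log2 scale, on which a difference of 1 is a 2-fold change. A gene was tested when it lay above log2 6.06, the 40th percentile of all gene values, on at least 2 arrays, which 12798 genes did. This took in 39 of the 41 members and left out the centromere proteins Cenpe and Cenpf, each of which passed that level on a single array, the second of B6 fusion Treg. Each comparison was fitted with limma over all 12798 genes, and called means a Benjamini-Hochberg adjusted p under 0.05. The sort was borne out by Foxp3, which read 11.37 to 12.16 on the 8 Treg arrays and 7.01 to 8.18 on the 8 Tconv arrays, a difference of 4.31 ± 0.11 (SE, adjusted p 1.34e-15). Cd3e lay at 11.03 to 11.84 and Cd4 at 11.04 to 11.72 over all arrays. Median intensities ran from 86.7 to 99.0 per array, and paired arrays of a group differed with an SD of 0.185 to 0.251 in log2 over the tested genes.

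**Figure D1:**
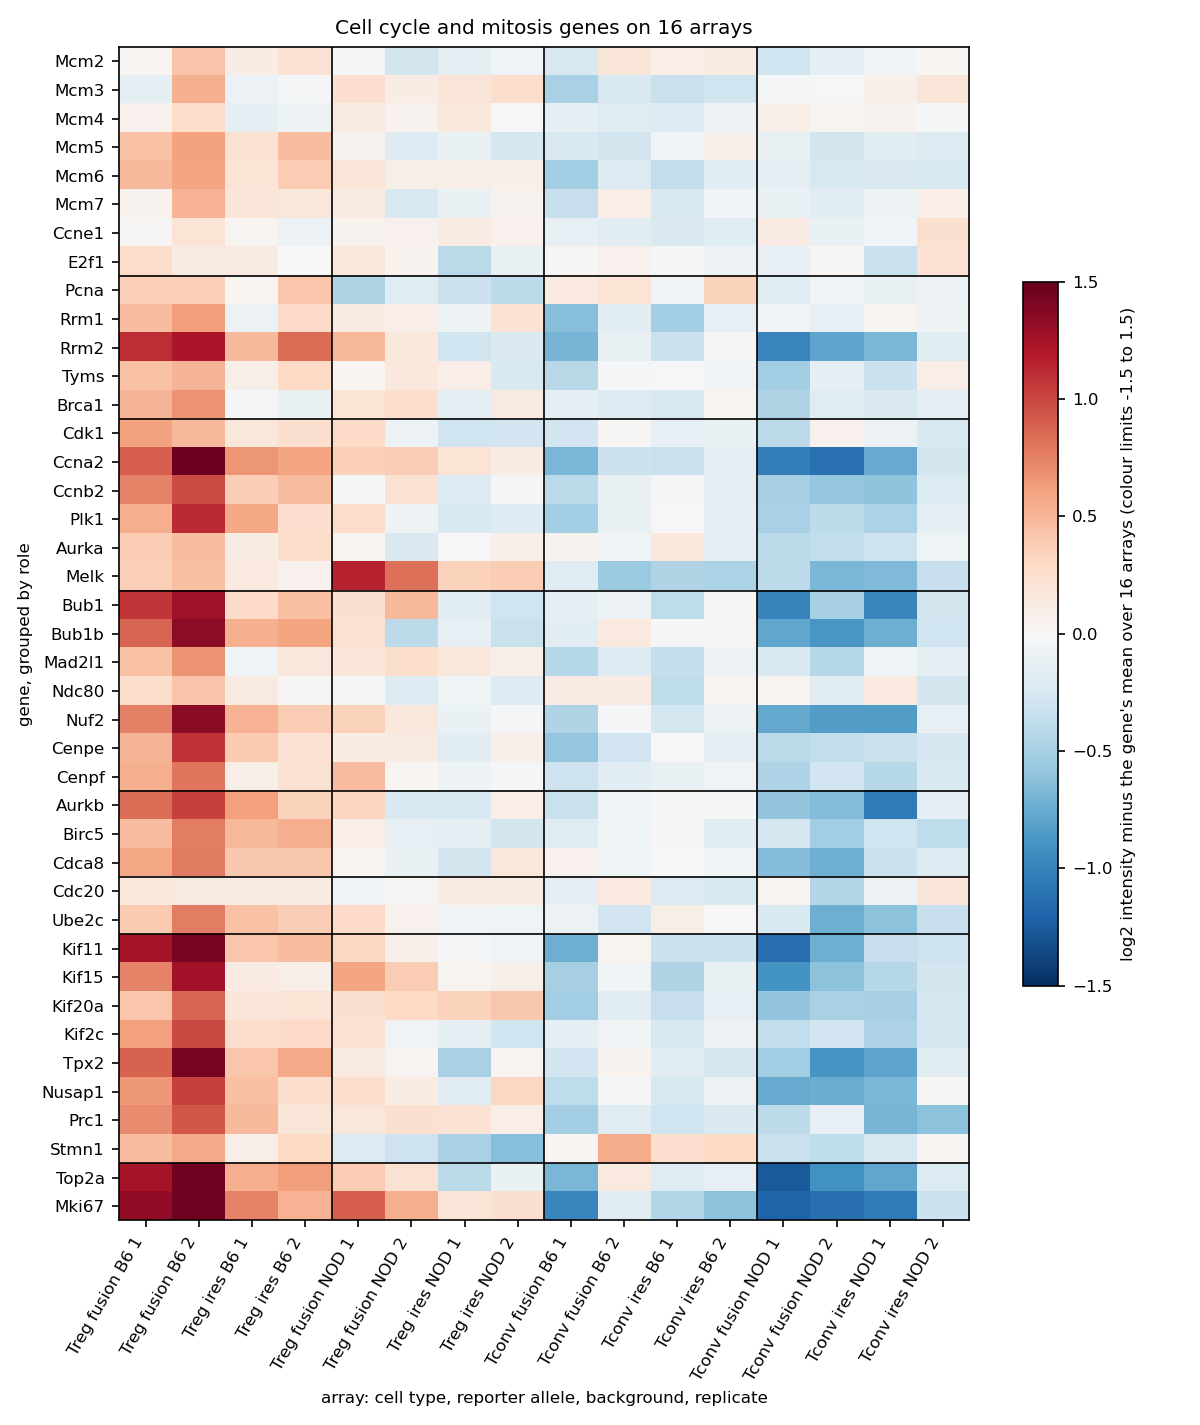
Each row is 1 of the 41 genes and each column 1 of the 16 arrays; colour gives the log2 intensity minus the gene's mean over the 16 arrays, and black lines part the role groups and, from left to right, B6 Treg, NOD Treg, B6 Tconv and NOD Tconv. The B6 fusion Treg arrays are the reddest columns, with the highest group mean for 39 of the 41 genes.

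B6 fusion Treg had the highest group mean for 39 of the 41 genes. The exceptions were Melk, highest in NOD fusion Treg, and Mcm3, highest in NOD ires Treg. At the other end, NOD fusion Tconv had the lowest group mean for 26 of the 41. The mean log2 level over the 41 genes was 7.67 and 7.93 on the arrays of B6 fusion Treg, 7.38 and 7.40 in B6 ires Treg, 7.32 and 7.18 in NOD fusion Treg, and 7.04 and 7.09 in NOD ires Treg. In Tconv it was 6.79 and 7.04 in B6 fusion, 6.94 and 7.01 in B6 ires, 6.65 and 6.67 in NOD fusion, and 6.71 and 6.96 in NOD ires. The 4 Treg groups did not overlap each other, and every Treg array but the first of NOD ires lay above the highest Tconv array, the second of B6 fusion. Both NOD fusion Tconv arrays lay below every other Tconv array, and the remaining Tconv groups overlapped among themselves. The 41 values of an array shifted together: the second array of B6 fusion Treg exceeded the first for 37 of 41 genes (median 0.21, against 0.06 over all tested genes), the second of B6 fusion Tconv for 33 (median 0.30) and the second of NOD ires Tconv for 33 (median 0.23). Members are therefore not independent of each other within an array.

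**Figure D2:**
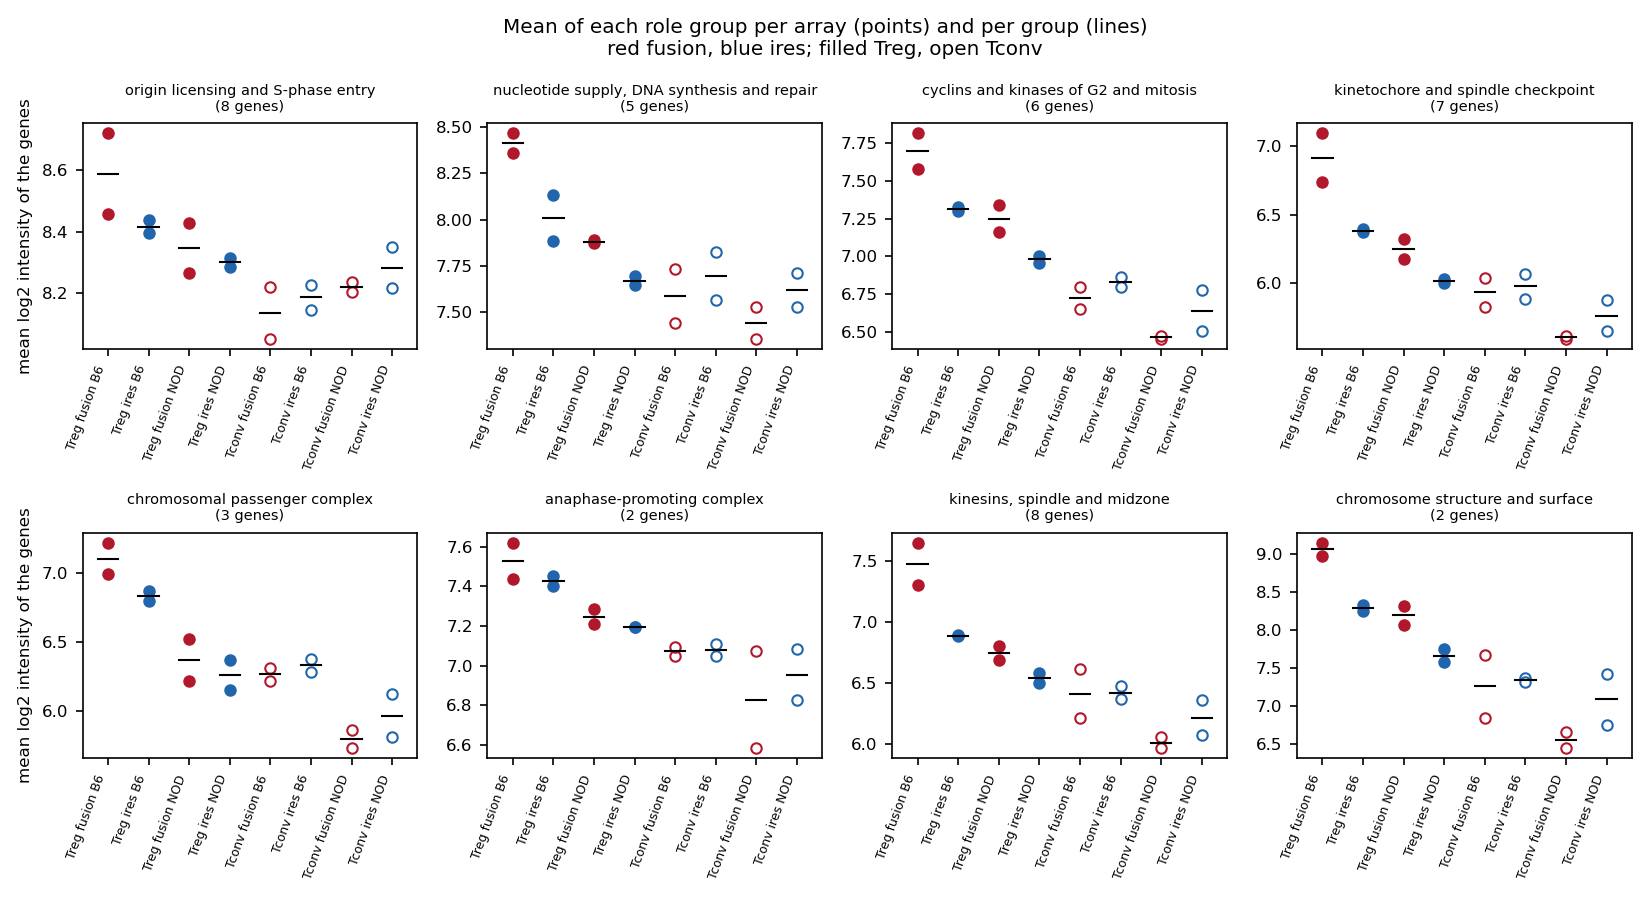
Mean log2 intensity of the genes in each of the 8 role groups (vertical axes), with 1 point per array and a line at each group mean; red is fusion, blue is ires, filled points are Treg and open points Tconv. Each panel has its own vertical scale. The separation of Treg from Tconv is narrow for the 8 licensing genes and wide for Top2a and Mki67.

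Treg were first compared with Tconv, averaged over allele and background. The transcripts of mitosis were higher in Treg: Mki67, the protein that coats mitotic chromosomes and the usual marker of proliferation, was 2.79-fold higher, Ccna2 (cyclin A2) 2.24-fold and Top2a (the topoisomerase that untangles sister chromatids) 2.00-fold. Of the 39 tested genes, 30 were called higher and none lower, with 32 higher and 0 lower at an unadjusted p under 0.05, which 37.2% of all tested genes had in either direction. Over all tested genes, 16.7% were called higher and 11.9% lower. The median difference was 0.50 for the members and -0.01 over all tested genes. Since Bub1, Nuf2 and Nusap1 passed the intensity filter through Treg arrays alone, the fit was repeated on all 19531 genes without it. There 32 of 41 members were called higher, against 10.7% of all genes, and these included Cenpe (0.59 ± 0.08, adjusted p 1.31e-05) and Cenpf (0.51 ± 0.07, adjusted p 2.86e-05).

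The licensing and S-phase entry genes differed least, with 3 of 8 called and a median of 0.15. Mcm6, a subunit of the helicase, read 9.62 and 9.73 in B6 fusion Treg, 9.34 and 9.51 in B6 ires Treg, 9.33 and 9.22 in NOD fusion Treg and 9.23 and 9.21 in NOD ires Treg, against 8.61 to 9.0 on the 8 Tconv arrays. No Tconv array reached the lowest Treg array, and the difference was 0.52 ± 0.06 (adjusted p 2.72e-06). Mcm5 (0.31 ± 0.06, adjusted p 0.000901) and Mcm3 (0.28 ± 0.08, adjusted p 0.014) were also called. Mcm2 was not, at 0.07 ± 0.08 (adjusted p 0.545), with Treg arrays at 8.50 to 9.21 and Tconv arrays at 8.48 to 8.96. Mcm4, Mcm7, Ccne1 (cyclin E1, which drives S-phase entry) and the transcription factor E2f1 were not called either, with differences of 0.06 to 0.19.

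Of the nucleotide and DNA synthesis genes 4 of 5 were higher in Treg. Rrm2, the regulated small subunit of ribonucleotide reductase, led with 8.31 and 8.44 in B6 fusion, 7.69 and 8.04 in B6 ires, 7.70 and 7.37 in NOD fusion and 6.91 and 6.99 in NOD ires Treg, against 6.22 to 7.18 in Tconv. Only the NOD ires Treg arrays lay inside the Tconv range. The difference was 0.95 ± 0.10 (adjusted p 3.27e-07), a 1.93-fold higher level. Rrm1, the large subunit (0.41 ± 0.08, adjusted p 0.00089), Brca1, which acts in recombination repair (0.38 ± 0.07, adjusted p 0.000175), and Tyms, thymidylate synthase (0.35 ± 0.08, adjusted p 0.00376), were called too. Pcna, the sliding clamp of the DNA polymerases, did not follow them. It read 9.64 to 10.51 in Treg and 9.91 to 10.43 in Tconv, a difference of -0.05 ± 0.07 (adjusted p 0.697), and 2 probe sets of the gene gave -0.05 each.

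All 6 cyclins and kinases of G2 and mitosis were called higher in Treg. Ccna2 read 8.01 and 8.58 in B6 fusion, 7.79 and 7.70 in B6 ires, 7.48 and 7.49 in NOD fusion and 7.32 and 7.23 in NOD ires Treg, against 6.00 to 6.97 in Tconv, with no overlap. Its difference was 1.16 ± 0.09 (adjusted p 5.02e-09). Melk, a kinase abundant in dividing cells, read 6.81 to 7.89 in Treg and 6.06 to 6.56 in Tconv, also without overlap (0.94 ± 0.08, adjusted p 1.13e-08). Cdk1, the kinase that drives entry into mitosis, differed less, by 0.28 ± 0.08 (adjusted p 0.00905), with 6.50 to 7.40 in Treg and 6.41 to 6.87 in Tconv. Its arrays overlapped widely, and both NOD ires Treg arrays (6.50 and 6.52) lay below most Tconv arrays. Ccnb2 (cyclin B2), Plk1 (polo-like kinase) and Aurka (aurora kinase A) differed by 0.64, 0.56 and 0.28.

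Among the kinetochore and checkpoint genes 4 of 5 tested were called. Nuf2 (0.85 ± 0.10, adjusted p 2.84e-06), an Ndc80-complex subunit that holds microtubules, and the checkpoint kinase Bub1 (0.84 ± 0.10, adjusted p 2.24e-06) were highest on the log2 difference, and Bub1b followed at 0.68 and Mad2l1 at 0.48. Their partner Ndc80 was not called (0.09 ± 0.08, adjusted p 0.439), at 6.02 to 6.64 in Treg and 5.83 to 6.36 in Tconv. All 3 genes of the chromosomal passenger complex, which corrects faulty attachments, were called: the kinase Aurkb by 0.70, Cdca8 (borealin) by 0.50 and Birc5 (survivin) by 0.46. Of the genes of the anaphase-promoting complex, its E2 enzyme Ube2c was called (0.55 ± 0.08, adjusted p 2.81e-05) and its activator Cdc20 was not (0.18 ± 0.07, adjusted p 0.0751).

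The kinesin, spindle and midzone genes had 7 of 8 called, with a median of 0.75. Kif11, the motor that pushes spindle poles apart, read 7.78 and 7.96 in B6 fusion, 6.95 and 6.99 in B6 ires, 6.84 and 6.61 in NOD fusion and 6.50 and 6.48 in NOD ires Treg, against 5.39 to 6.57 in Tconv. The highest Tconv array exceeded only the NOD ires Treg arrays, and the difference was 0.96 ± 0.09 (adjusted p 1.38e-07). Kif15 (0.83), a motor of the same spindle task, Prc1 (0.76), which bundles midzone microtubules, and the motor Kif20a (0.74) differed with no overlap between the cell types. Tpx2, an activator of aurora A, Nusap1 and the motor Kif2c differed by 0.75, 0.73 and 0.47. Stmn1, which destabilises microtubules, was the exception: 7.93 to 9.14 in Treg and 8.19 to 9.12 in Tconv, a difference of -0.05 ± 0.07 (adjusted p 0.668). The widest difference was that of Mki67, with 9.05 and 9.18 in B6 fusion, 8.46 and 8.23 in B6 ires, 8.61 and 8.26 in NOD fusion and 7.91 and 7.95 in NOD ires Treg, against 6.51 to 7.55 in Tconv. Every Treg array exceeded every Tconv array, by 1.48 ± 0.11 on average (adjusted p 5.39e-09). Top2a differed by 1.00 ± 0.11 (adjusted p 7.08e-07), with 7.24 to 9.10 in Treg and 6.39 to 7.79 in Tconv. A dimmer second probe set of Top2a gave 0.12.

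Complete separation of the 8 Treg from the 8 Tconv arrays was seen for 7 of the 41 genes, Mcm6, Ccna2, Melk, Kif15, Kif20a, Prc1 and Mki67, while 16.7% of all tested genes were called higher in this comparison and 5.69% had every Treg array above every Tconv array.

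The same comparison was made within each background. In B6, 31 of 39 members were called higher in Treg and none lower (35 higher and 0 lower at an unadjusted p under 0.05, which 30.1% of all tested genes had), against 14.1% and 6.74% of all tested genes, with a member median of 0.67. In NOD, 21 were called higher and none lower, against 10.8% and 7.63%, with a median of 0.37; at an unadjusted p under 0.05, which 28.4% of all tested genes had, 25 were higher and 1 lower. All 21 were among the 31 of B6. In the fit without the filter, 31 of 41 members were called higher in B6 and 23 of 41 in NOD, against 8.49% and 6.63% of all genes. Quantile normalization gave 21 higher and 1 lower in NOD. With each array left out in turn, all 30 calls made over both backgrounds held, 27 of the 31 in B6 (not Aurka, Mcm3, Mcm7 and Tyms) and 16 of the 21 in NOD (not Aurkb, Brca1, Bub1b, Mcm6 and Tpx2). With the mean of its probe sets Top2a was no longer called in NOD (0.33 ± 0.12, adjusted p 0.0706), centring each array on its median ended the calls of Mcm6 and Brca1 in NOD and of Mcm7 and Aurka in B6, and these B6 calls were also lost without the filter. In NOD, 15 of 41 members had all 4 Treg arrays above all 4 Tconv arrays, against 12% of all tested genes, and Pcna had all of them below. The 10 genes called in B6 alone were Mcm3, Mcm5, Mcm7, Rrm1, Tyms, Cdk1, Plk1, Aurka, Birc5 and Kif2c. Cdk1 differed by 0.50 ± 0.11 in B6 and 0.06 ± 0.11 in NOD, and Mcm5 by 0.56 ± 0.09 and 0.07 ± 0.09. Rrm2 differed by 1.20 ± 0.14 and 0.70 ± 0.14, and Kif11 by 1.22 ± 0.13 and 0.70 ± 0.13. Melk had the larger value in NOD, with 0.67 ± 0.11 in B6 and 1.20 ± 0.11 in NOD, and Mki67 was near level, with 1.56 ± 0.16 and 1.40 ± 0.16.

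The test of that difference between backgrounds called no member, against 0.82% of all tested genes in either direction, although 12 members had a smaller and 1 a larger difference in NOD at an unadjusted p under 0.05, where 9.9% of all tested genes had such a p. The lowest adjusted p values were 0.0953 for Mcm5 (-0.49 ± 0.13) and 0.141 for Melk (0.53 ± 0.15). Without the second B6 fusion Tconv array, 1 member was called. The larger count of called members in B6 was thus not shown to be a difference between backgrounds.

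**Figure D3:**
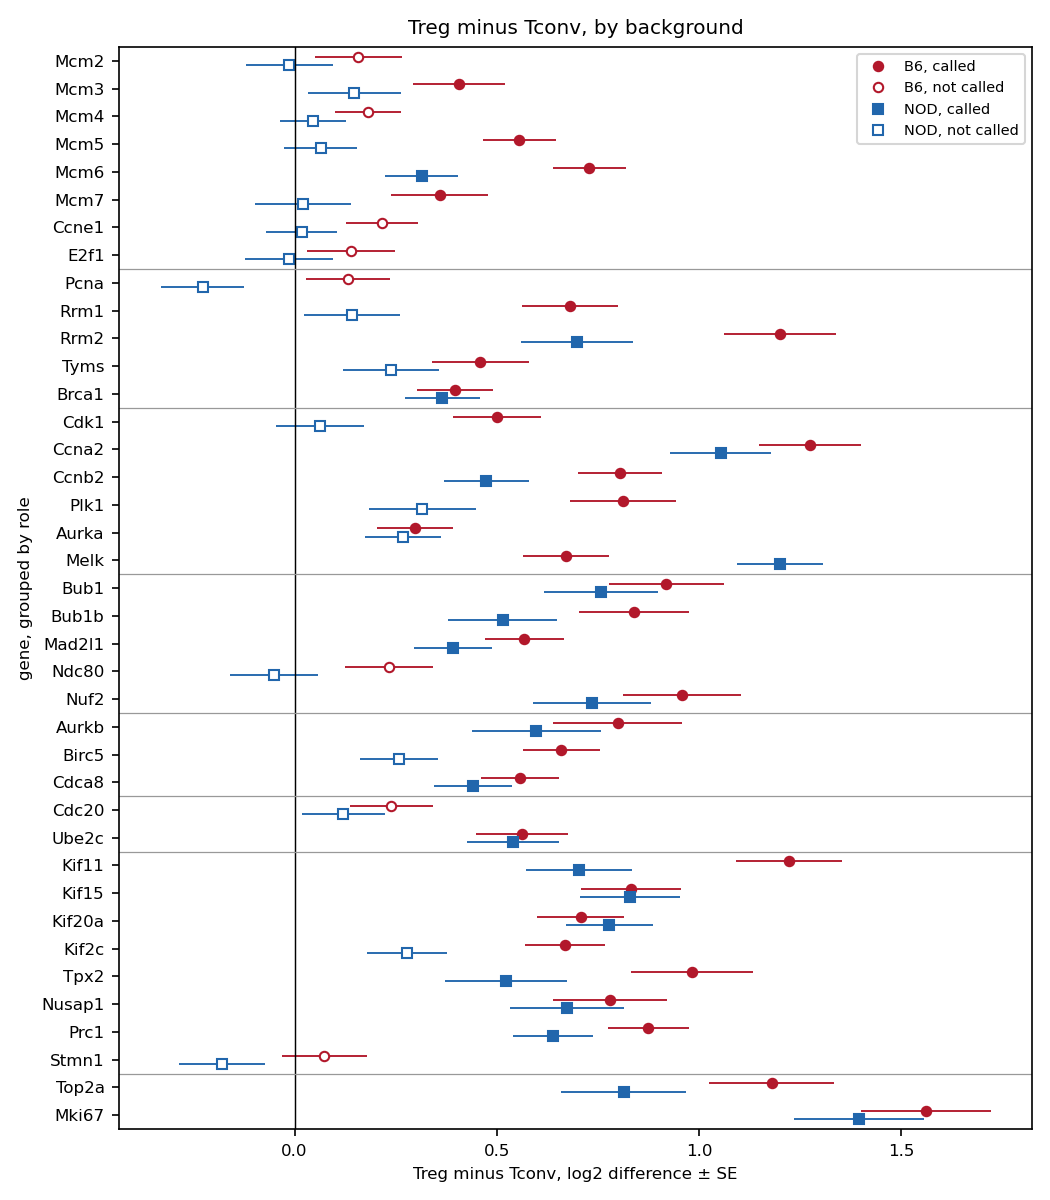
Treg minus Tconv log2 difference (horizontal axis) with its SE for the 39 tested genes (vertical axis, grouped by role), red circles for B6 and blue squares for NOD; filled symbols are called at an adjusted p under 0.05. Most B6 points lie to the right of the NOD points, with Melk and Kif20a the other way, and Mki67 lies farthest right in both.

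NOD was next compared with B6 within Treg. NOD Treg had lower array signal for most of these genes: Bub1b, a spindle checkpoint kinase, was 1.98-fold lower, Top2a 1.92-fold, Tpx2 1.85-fold and Rrm2 1.83-fold. Whether the probes match NOD and B6 transcripts equally was not tested, for this or any other comparison of the backgrounds. In all, 26 of 39 members were called lower and 1, Melk, higher, against 9.82% lower and 11.2% higher over all tested genes. The member median was -0.47 and that of all tested genes -0.02. Bub1 and Nusap1 passed the intensity filter through B6 Treg arrays alone. In the fit without the intensity filter 25 of 41 were called lower and 1 higher, against 5.61% and 5.85% of all genes; Cenpe was among the lower (-0.51 ± 0.11, adjusted p 0.00579) and Cenpf was not called (-0.31 ± 0.10, adjusted p 0.0588). These comparisons share the Treg arrays with the comparison against Tconv, so the directions of both sets of values are not independent. The Treg marker genes Foxp3, Il2ra, Ctla4, Ikzf2, Tnfrsf18 and Lrrc32 summed to an intensity of 12251 to 14116 in NOD and 14774 to 16940 in B6 Treg, without overlap. Of these 6, 4 were lower and 2 higher in NOD Treg, and Lrrc32 (-1.04) and Ctla4 (-0.63) were called. Their part in the values of the members was not tested.

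Pcna and Stmn1, which were not called between the cell types, did separate the backgrounds. Mcm4, Mcm7, Ccne1, E2f1 and Cdc20 were called in neither comparison. Pcna read 10.45 and 10.45 in B6 fusion and 10.12 and 10.51 in B6 ires Treg, against 9.64 and 9.91 in NOD fusion and 9.78 and 9.70 in NOD ires Treg. All NOD arrays lay below all B6 arrays, by 0.63 on average (-0.63 ± 0.10, adjusted p 0.000363). Stmn1 read 9.04, 9.14, 8.66 and 8.87 on the B6 arrays and 8.36, 8.26, 8.08 and 7.93 on the NOD arrays, likewise without overlap (-0.77 ± 0.11, adjusted p 5.66e-05). Among the licensing genes 3 of 8 were called lower: Mcm5 (-0.56 ± 0.09, adjusted p 0.000298), Mcm2 (-0.32 ± 0.11, adjusted p 0.0428) and Mcm6 (-0.30 ± 0.09, adjusted p 0.0228). Mcm3, Mcm4 and Ccne1 had slightly positive differences that were not called. Rrm2 fell by 0.87 (-0.87 ± 0.14, adjusted p 0.000236), whereas Rrm1, Tyms and Brca1 were not called.

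Of the cyclins and kinases 5 of 6 were lower in NOD Treg. Plk1 differed by -0.68 ± 0.13, Ccna2 by -0.64 ± 0.13, Ccnb2 by -0.64 ± 0.10, Cdk1 by -0.47 ± 0.11 and Aurka by -0.32 ± 0.09, with adjusted p values from 0.000328 to 0.0211. Melk opposed them. It read 7.10 and 7.19 in B6 fusion, 6.89 and 6.81 in B6 ires, 7.89 and 7.57 in NOD fusion and 7.09 and 7.13 in NOD ires Treg, and was higher by 0.42 ± 0.11 (adjusted p 0.00967), with the NOD ires arrays inside the B6 range. Plk1 read 7.69, 8.26, 7.73 and 7.39 in B6 and 7.43, 7.07, 6.91 and 6.95 in NOD Treg, where the highest NOD array just passed the lowest B6 array. In Tconv Melk differed by -0.11 ± 0.11 (adjusted p 0.48).

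At the kinetochore 4 of 5 tested genes were lower. Bub1b read 7.21, 7.68, 6.87 and 6.92 in B6 Treg and 6.56, 5.95, 6.21 and 6.00 in NOD Treg, a difference of -0.99 ± 0.14 (adjusted p 5.26e-05) with no overlap. Bub1 (-0.70), Nuf2 (-0.66) and Ndc80 (-0.33) were called and Mad2l1 was not. The passenger genes Aurkb (-0.72), Birc5 (-0.67) and Cdca8 (-0.58) and the E2 enzyme Ube2c (-0.43) were lower, each with every NOD array below every B6 array, and Cdc20 was not called. For Aurkb, the catalytic kinase of the passenger complex, the B6 arrays read 7.74, 7.93, 7.52 and 7.25 and the NOD arrays 7.23, 6.67, 6.67 and 7.0. Of the spindle genes 6 of 8 were lower. Tpx2 read 7.39, 7.93, 6.93 and 7.08 in B6 and 6.63, 6.56, 6.03 and 6.55 in NOD Treg (-0.89 ± 0.15, adjusted p 0.000452), and Kif11 (-0.82), Stmn1 (-0.77), Kif2c (-0.60), Nusap1 (-0.47) and Prc1 (-0.39) followed, while Kif15 and Kif20a were not called. Top2a read 8.89, 9.10, 8.20 and 8.27 in B6 and 8.03, 7.88, 7.24 and 7.54 in NOD Treg, again without overlap (-0.94 ± 0.15, adjusted p 0.000323), and Mki67 differed by -0.55 ± 0.16 (adjusted p 0.0221). The dimmer second probe set of Top2a gave -0.27, and the second probe sets of Pcna and Stmn1 gave -0.61 and -0.81. In all, 20 of the 41 genes had all 4 NOD Treg arrays below all 4 B6 Treg arrays and none had them above, against 10% and 10.7% of all tested genes. With each array left out in turn, 19 of the 27 calls held, and those of Aurka, Mcm2, Mcm6, Mki67, Ndc80, Nusap1, Prc1 and Ube2c were lost without at least 1 array. Centring each array on its median ended the calls of Mcm2 (-0.25, adjusted p 0.146), Mcm6 (-0.24, adjusted p 0.121), Aurka, Ndc80 and Nusap1, quantile normalization those of Ndc80 and Nusap1, the fit without the filter those of Mcm2 and Ndc80, and array weights that of Mcm2.

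In Tconv, which share no array with Treg, 10 of 39 members were called lower in NOD and 1, Mcm3, higher (0.40 ± 0.11, adjusted p 0.0282), against 6.49% lower and 9.39% higher over all tested genes. The 10 were Bub1b (-0.66 ± 0.14, adjusted p 0.00347), Top2a (-0.58), Bub1 (-0.54), Aurkb (-0.52), Stmn1 (-0.51), Cdca8 (-0.47), Nuf2 (-0.44), Ccna2 (-0.42), Ube2c (-0.41) and Aurka (-0.29), and all 10 were among the 26 called lower in NOD Treg. The member median was -0.21 against 0.02 over all tested genes. Mki67 (-0.38 ± 0.16, adjusted p 0.104) and Pcna (-0.27 ± 0.10, adjusted p 0.083) were not called. Bub1b read 6.17, 6.48, 6.32 and 6.35 in B6 Tconv and 5.56, 5.47, 5.61 and 6.04 in NOD Tconv, without overlap. The total of 11 called rested on particular arrays. It was 3 without the first NOD ires Tconv array, 5 without the second NOD fusion array, and 7 without the second B6 fusion or the first B6 ires array. Bub1b, Cdca8 and Stmn1 were the 3 called whichever array was left out. Bub1 and Nuf2 lay below the filter level on every Tconv array and were tested through Treg arrays. Without the filter 7 of 41 members were called lower and 1 higher, against 3.62% and 4.73% of all genes, and Nuf2 (adjusted p 0.0672), Aurkb (0.0515) and Aurka (0.0667) were no longer called. With the mean of its probe sets Top2a differed by -0.14 (adjusted p 0.421) and was not called. Centring each array on its median left 5 members called lower and 3 higher, a different split from the 10 and 1 above, and ended the calls of Ccna2, Aurka, Nuf2, Aurkb and Ube2c; quantile normalization ended those of Mcm3, Ccna2, Bub1, Nuf2 and Aurkb. Of the 6 Treg markers, 4 were called higher in NOD than in B6 Tconv: Il2ra (0.85), Tnfrsf18 (0.73), Ikzf2 (0.61) and Foxp3 (0.50, adjusted p 0.0391). The other 2, Ctla4 and Lrrc32, had small negative values, the lower at -0.20, and were not called. All 6 summed to an intensity of 1118 to 1623 in NOD and 862 to 1046 in B6 Tconv, without overlap, against 12251 to 16940 in Treg. The part of this in the NOD Tconv values, and in Treg against Tconv within NOD, was not tested. Whether the background difference itself differed between Treg and Tconv is the same test as that of the cell types across backgrounds, which called no member.

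**Figure D4:**
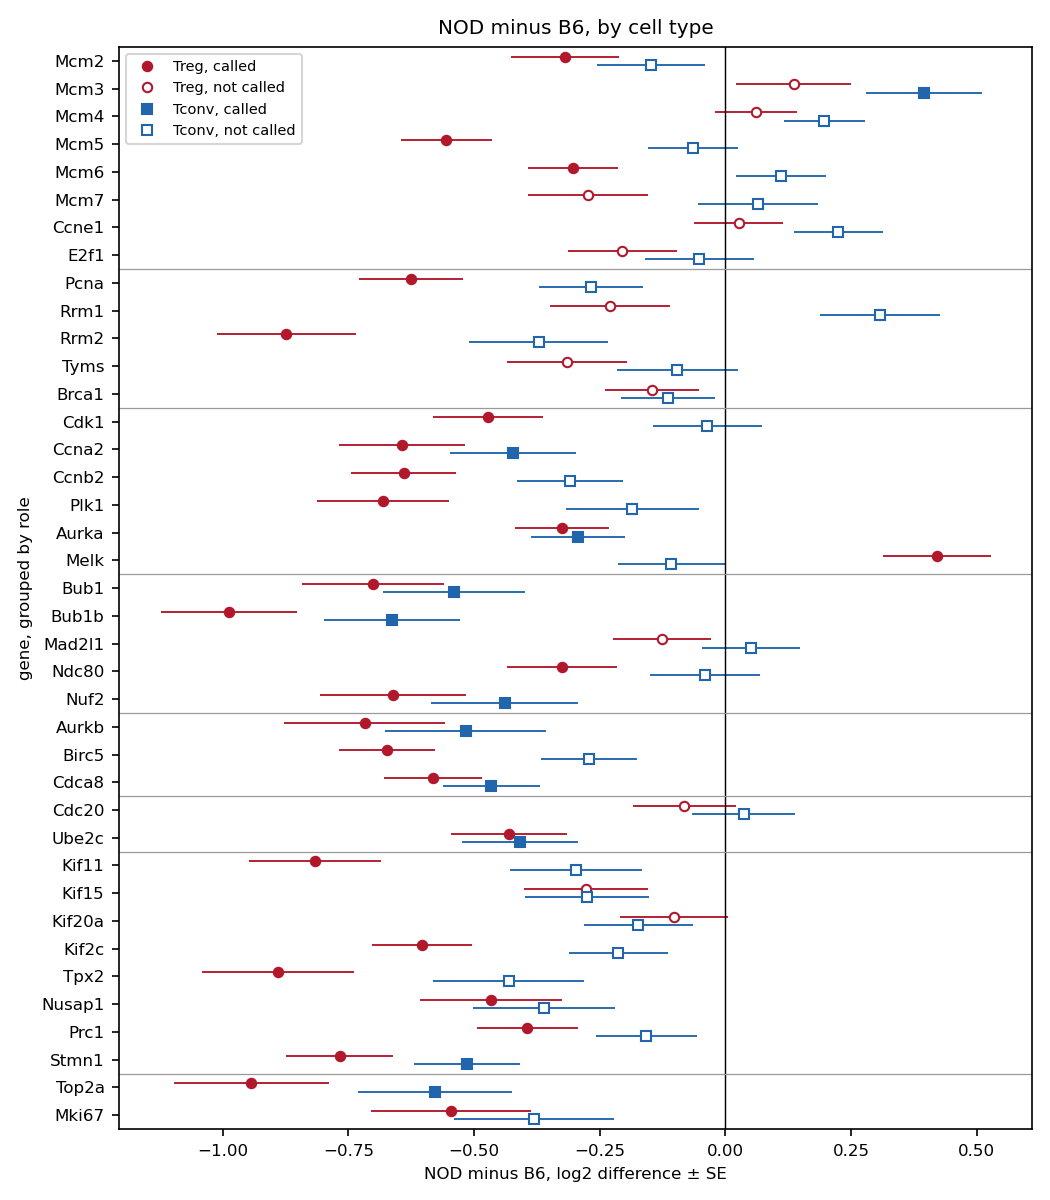
NOD minus B6 log2 difference (horizontal axis) with its SE for the 39 tested genes (vertical axis, grouped by role), red circles for Treg and blue squares for Tconv; filled symbols are called at an adjusted p under 0.05. Most filled points lie left of 0, with Bub1b at -0.99 in Treg and -0.66 in Tconv, and Melk lies right of 0 in Treg alone.

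The reporter alleles were compared within Treg, over both backgrounds. Treg of the fusion line had higher Bub1, Kif15 and Brca1 than Treg of the ires line, by 1.62-fold, 1.58-fold and 1.36-fold. These 3 of 39 members were called higher and none lower, against 0.398% called higher over all tested genes; 21 members were higher and 0 lower at an unadjusted p under 0.05, which 7.55% of all tested genes had. The member median was 0.28 and that of all tested genes was 0.00 to 2 decimals. Bub1 passed the intensity filter on 2 arrays alone, both of B6 fusion Treg, the group in which it was highest. Without the intensity filter Bub1 and Kif15 were called and Brca1 was not (adjusted p 0.0639).

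Kif15 read 6.99 and 7.50 in B6 fusion and 6.36 and 6.34 in B6 ires Treg, and 6.84 and 6.63 in NOD fusion and 6.29 and 6.33 in NOD ires Treg. Every fusion array lay above every ires array, and the difference was 0.66 ± 0.12 (adjusted p 0.0163). Brca1 read 6.71, 6.88, 6.41 and 6.46 on the fusion arrays and 6.17, 6.11, 6.07 and 6.34 on the ires arrays, also without overlap (0.44 ± 0.09, adjusted p 0.0401). Bub1 read 6.34 and 6.55 against 5.56 and 5.72 in B6, and 5.51 and 5.76 against 5.12 and 4.98 in NOD, so that the NOD fusion and the B6 ires arrays overlapped (0.70 ± 0.14, adjusted p 0.0317). Melk (0.46 ± 0.11, adjusted p 0.0573), Kif11 (0.57 ± 0.13, adjusted p 0.0584), Top2a (0.66 ± 0.15, adjusted p 0.0603), Mki67 (0.63 ± 0.16, adjusted p 0.0992) and Rrm2 (0.55 ± 0.14, adjusted p 0.103) did not pass the test. Cdk1 (0.37 ± 0.11, adjusted p 0.211) did not either, and the values of Mcm2 and Pcna were 0.01 ± 0.11 and 0.08 ± 0.10.

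Within B6 Treg, Kif15 (0.90 ± 0.18, adjusted p 0.0297), Brca1 (0.65 ± 0.13, adjusted p 0.0383) and Kif11 (0.90 ± 0.19, adjusted p 0.0432) were called higher in the fusion line, against 0.289% of all tested genes. Both fusion arrays lay above both ires arrays for 32 of the 41 genes and below for none, against 21.9% and 17% of all tested genes. Within NOD Treg no member was called, against 0.102% of all tested genes in either direction, and 9 were higher and 0 lower at an unadjusted p under 0.05, where 4.81% of all tested genes had such a p. There the fusion arrays lay above for 22 of the 41 and below for 3, Ccne1, Cdc20 and Kif20a, against 15.2% and 19.8% of all tested genes. Melk had the lowest adjusted p in NOD (0.63 ± 0.15, adjusted p 0.258). The test of the allele difference between NOD and B6 Treg called no member, against 0.0391% of all tested genes, and 5 members had a smaller difference in NOD at an unadjusted p under 0.05, where 6.08% of all tested genes had such a p. For Kif11 the values were 0.90 ± 0.19 in B6 and 0.24 ± 0.19 in NOD, and their difference was -0.66 ± 0.26 (adjusted p 0.763).

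The same allele comparison in Tconv, sorted as GFP-, called no member, against 0.0234% of all tested genes. At an unadjusted p under 0.05, 4 members were lower and 0 higher, where 2.97% of all tested genes had such a p. Ccna2 (-0.41 ± 0.13, adjusted p 0.932), Top2a (-0.36 ± 0.15), Rrm2 (-0.34 ± 0.14) and Kif11 (-0.32 ± 0.13) had the most negative values. The test of the allele difference between Treg and Tconv called none of the 39, against 0.0469% of all tested genes, while 22 members had a larger difference in Treg at an unadjusted p under 0.05, where 3.57% of all tested genes had such a p. The lowest adjusted p values were 0.0879 for Kif15 (0.86 ± 0.18), 0.0945 for Kif11 (0.89 ± 0.19) and 0.109 for Top2a (1.02 ± 0.22). This count was 5 without the second B6 fusion Tconv array and 4 without the first NOD ires Tconv array.

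The count of 3 members called between alleles in Treg depended on particular arrays. It was 0 without the second B6 fusion, either B6 ires or the first NOD ires Treg array, and 1 without the first NOD fusion or the second NOD ires Treg array. It was 8 without either B6 fusion Tconv array and 6 without either NOD ires Tconv array, which enter this comparison only through the shared estimate of the spread. Within B6 Treg the count of 3 became 0 without the second fusion or either ires array and 1 without the first fusion array. Quantile normalization left 1 called over both backgrounds and 0 in B6.

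**Figure D5:**
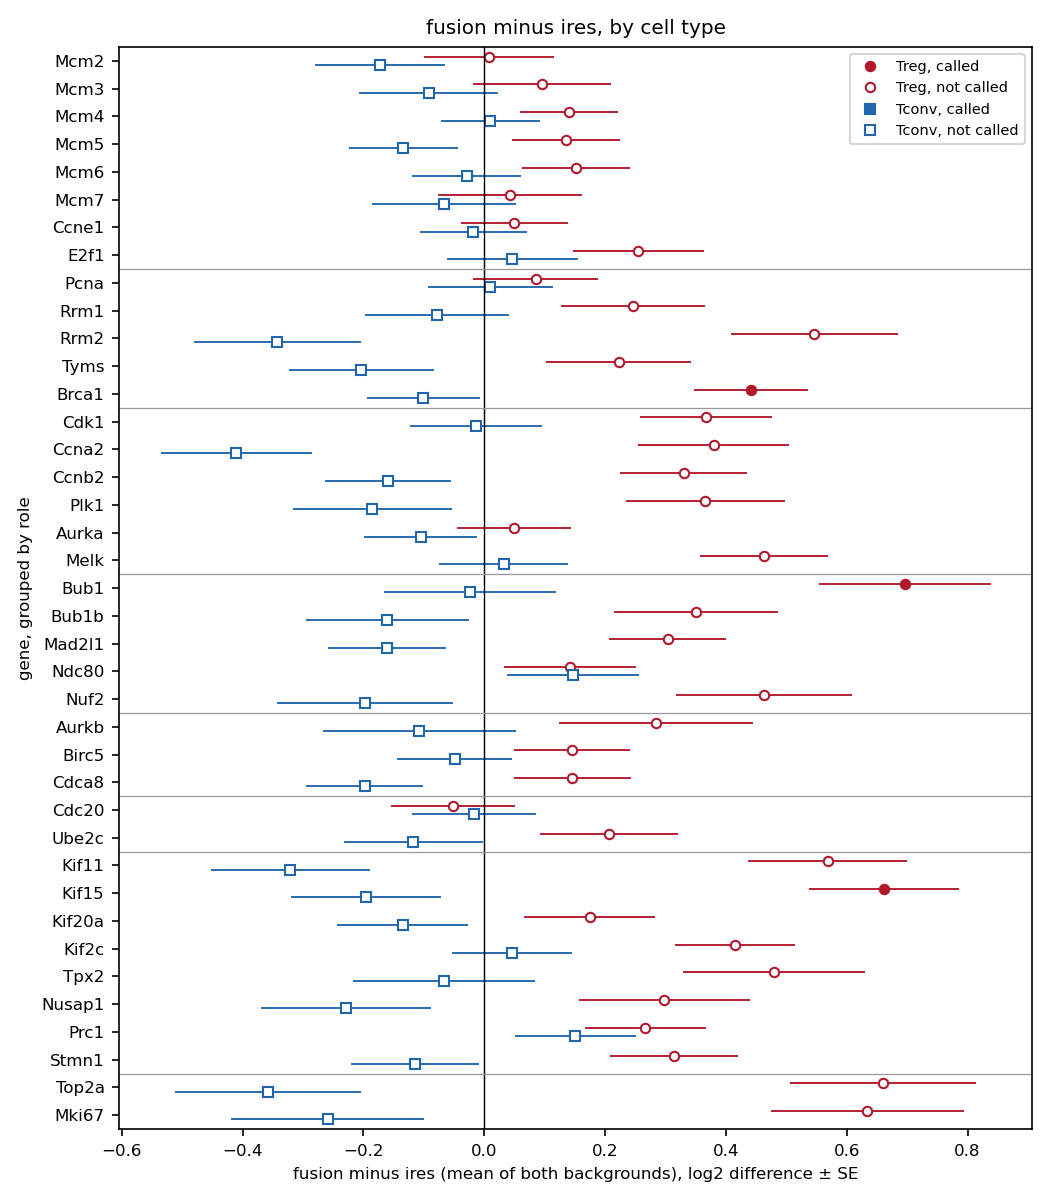
Fusion minus ires log2 difference (horizontal axis, mean of both backgrounds) with its SE for the 39 tested genes (vertical axis, grouped by role), red circles for Treg and blue squares for Tconv; filled symbols are called at an adjusted p under 0.05. Brca1, Bub1 and Kif15 are the 3 filled points, and most Treg points lie right of 0 while most Tconv points lie near 0 or left of it.

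The rest of the cell cycle machinery was read from 5 lists outside the 41 genes. Their counts stand against the shares of all tested genes called, which were 16.7% higher and 11.9% lower in Treg than in Tconv, 11.2% higher and 9.82% lower in NOD than in B6 Treg, and 9.39% higher and 6.49% lower in NOD than in B6 Tconv. Of 48 tested other mitosis genes, 38 were called higher and 1 lower in Treg than in Tconv, led by the condensin subunit Ncapg (1.12), its relative Ncapg2 (0.79), the cytokinesis regulator Racgap1 (0.76) and the centrosome kinase Nek2 (0.67), with Ska2 lower (-0.32). In NOD Treg 29 of the 48 were lower than in B6 Treg and none higher, with securin, Pttg1 (-1.26), the condensin subunit Ncapd2 (-0.83), the cyclin-dependent kinase subunit Cks2 (-0.80) and the kinetochore gene Spc25 (-0.70) farthest. Pttg1 (-1.61) and Cks2 (-0.87) were also lowest in NOD Tconv, where 10 were lower and 1, Cdca7 (0.52), higher. Ncapg was the sole gene of the 5 lists called between the alleles in Treg, at 0.64 higher in fusion. Of 34 tested other replication genes, 17 were higher in Treg, among them the checkpoint kinase Chek1 (0.64), Uhrf1 (0.59), the polymerase subunit Pole (0.59) and the licensing factor Cdc6 (0.52). The origin-firing kinase Cdc7 (-0.46) and its activator Dbf4 (-0.28) were the 2 lower. In NOD Treg 16 of the 34 were lower and 2 higher, and the firing kinase pair moved apart: Cdc7 was 0.50 higher and Dbf4 differed by -0.72.

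Regulators upstream of these genes were read against the same shares. Of 16 tested E2F, DREAM and MYB regulators, 7 were higher in Treg and none lower, with the late repressor E2f8 (0.70), the mitotic activator Foxm1 (0.48), E2f2 (0.46) and E2f3 (0.35) named. In NOD Treg 1 of the 16 was lower, E2f8 (-0.62), and 1 higher, E2f5 (0.52), counts no larger than the shares over all tested genes. Of 11 tested G1 cyclins, kinases and phosphatase, Cdk6 (1.02) and Myc (0.39) were higher and Cdc25a (-0.39) and Ccnd3 (-0.32) lower in Treg, counts near the shares over all tested genes. Of 28 tested inhibitors and quiescence genes, 12 were higher and 3 lower in Treg, the latter near the share over all tested genes. The stress-response genes Gadd45b (1.36) and Gadd45g (0.76), the inhibitory kinase Wee1 (0.81) and the kinase inhibitor Cdkn2c (0.78) were higher, and Slfn2 (-0.44), Klf2 (-0.34) and Cdkn2d (-0.32) were lower. In NOD Treg 4 of these were higher, Rbl2 (0.64), Rb1 (0.42), Foxo1 (0.40) and Tsc1 (0.32), and 8 lower, led by Cdkn2c (-0.81); the count of the higher is near the share over all tested genes. Medians over the lists in Treg against Tconv were 0.34 for other mitosis genes, 0.20 for other replication genes, 0.15 for inhibitors, 0.12 for E2F, DREAM and MYB regulators and 0.09 for G1 genes, against -0.01 over all tested genes.

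The 5 genes outside all lists whose pattern over the 16 arrays was most like the mean of the 39 tested members were the linker histone H1f5 (Pearson r 0.980), the histone H2ac15 (0.965), the DNA glycosylase Neil3 (0.960), Gimap7 (0.958) and the nuclear import receptor Kpna2 (0.948). They were picked as the highest of all tested genes over arrays that share the group differences, and no p is given.

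Markers of other cells that could sit in the gates were read from fixed lists. The summed intensity of 12 of 13 listed B and plasma cell genes was 1273 to 1479 in Treg and 890 to 1320 in Tconv. Xbp1 (0.71) and Cd79b (0.69) were called higher in Treg. Cd79a (4.41 to 5.50 in Treg, 4.58 to 5.93 in Tconv) and Ms4a1 (3.94 to 4.63 and 3.84 to 5.75) stayed below the filter level on every array. Of the 12, 6 passed that level on at least 1 array. Among these, Cr2 reached 6.66, Cd22 6.46, Sdc1 6.29 and Pax5 6.23 in Tconv. The 5 of 7 germinal centre genes on the array summed to 792 to 1037 and 626 to 818. All 3 that were tested, Fas, Bcl6 and S1pr2, were called higher in Treg. Rgs13, at 2.94 to 3.82 over all arrays, and Gcsam, at 4.72 to 5.41, lay below the filter level. The 10 of 13 erythroid and platelet genes summed to 968 to 1080 and 882 to 1018, with only Tfrc called (0.42). Of the 10, 8 passed the filter level on at least 1 array. Tfrc, Slc4a1, Ermap, Itga2b, Epor and Gp9 lay above it on every array. Klf1 was at 5.52 to 5.97 in Treg and 5.72 to 6.27 in Tconv. The 10 dendritic and MHC class II genes summed to 592 to 926 in Treg and 591 to 1151 in Tconv, with Cd74 called higher (1.00) and H2-Ab1 lower (-0.38) in Treg. Within B6 their sums did not overlap, at 760 to 926 in Treg and 616 to 643 in Tconv, and Cd74 was 1.92 higher there. In the NOD fusion Tconv pair the first array stood apart, at 1151 beside 591 in the second; without it, 8 members were called between NOD and B6 Tconv and 21 between Treg and Tconv in NOD. The other 3 NOD Tconv arrays ran from 591 to 671. Between backgrounds in Tconv the myeloid sums overlapped, at 520 to 729 in NOD and 616 to 656 in B6, as did those of B and plasma cells, at 940 to 1320 and 890 to 1035. The highest NOD values of both lists, 729 and 1320, were again those of the first NOD fusion Tconv array, beside 584 and 940 in the second. Between backgrounds in Treg, all 12 myeloid genes summed to 516 to 592 in NOD and 623 to 664 in B6, and all 10 dendritic and MHC class II genes to 592 to 684 and 760 to 926, in both cases without overlap, with Lyz2 (-0.60), Itgam (-0.45) and Cd74 (-1.01) called lower. The B and plasma cell sums overlapped there, at 1273 to 1479 in NOD and 1290 to 1430 in B6. Of the CD8, NK and gamma-delta list, Klrd1 (-2.35) and Cd8b1 (-0.42) were lower and Cd8a higher (0.23) in Treg, 8 of its 10 genes summed to 511 to 755 in Treg and 753 to 896 in Tconv, and in NOD Treg Cd8b1 (-0.57) and Cd8a (-0.50) were lower and Eomes higher (0.63). The part of these cells in the results on the cell cycle genes was not tested.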

How the data were processed

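The deposited values are linear microarray intensity values made by the authors with Affymetrix Power Tools and RMA (background correction, normalization between arrays and summary per probe set), per the submitters' processing notes; for both, the version, and the genome build, is not given in the sources used here. RMA normalizes arrays to each other, so differences are relative. Of 25108 probe sets, 21157 carried 1 gene symbol in the platform annotation, 1341 several and 2610 none. Those with 1 symbol gave 19531 genes, with the probe set of the highest mean per gene. Values were taken as log2 of the deposited intensity, with no pseudocount.

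Genes above log2 6.06 on 2 or more arrays (12798) entered limma 3.58.1 in R 4.3.3, with 1 mean per group over the 16 arrays, 8 residual and 9.80 prior degrees of freedom, two-sided tests and Benjamini-Hochberg adjustment over all tested genes. With 2 arrays per group the number of arrays limits the precision, and errors are standard errors unless named. Same-numbered arrays were checked for pairing and did not deviate together throughout, so no block was used.

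The members, their role groups, the other lists and the motifs were chosen with earlier results of these data known. Values are given for members called in an allele or background comparison, the 6 called with the largest Treg excess, and Mki67, Top2a, Cdk1, Mcm2 and Pcna whatever they showed; other members are given by range or count. At most 4 called genes per direction are named from each other list. Alternatives were the filter, scaling, variance model, probe set choice, replicate block, arrays fitted and each array left out.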

Additional observations from a re-analysis of the deposited data

Results flagged for a closer look

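For 2 genes the allele difference in Treg ran opposite ways in the 2 backgrounds on every array. Kif20a, a mitotic kinesin, was higher in fusion than in ires Treg of B6 (log2 difference 0.45) and lower in NOD (-0.11), with both arrays of 1 line beyond both of the other each time. Cdc20, the activator of the anaphase-promoting complex, showed 0.026 in B6 and -0.13 in NOD in the same way, a pair of values within the spread between arrays of a group. Arrays in pairs separate often: over all tested genes 21.9% lay wholly above and 17% wholly below in B6. The limma test of the difference between backgrounds called neither gene.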

How the results depend on the processing

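The higher levels in Treg changed little in number under every scaling and variance setting tried. Counts of members called moved by more than 1.5 times as follows. With the stricter filter, which tests fewer genes by its construction, 19 were called between Treg and Tconv, 20 in the same comparison within B6, and 1 for fusion against ires in Treg and in B6 Treg. For fusion against ires in Treg the count was 1 with quantile normalization, 5 with trend and robust variances, 7 with the replicate block and 8 when only the groups compared were fitted. In B6 Treg it was 1 without the filter, 0 with quantile normalization, 0 with array weights and 10 with only the groups compared. For the allele difference between Treg and Tconv it was 2 with trend and robust variances and 3 with the replicate block. For NOD against B6 in Tconv it was 7 with quantile normalization, 18 with the replicate block and 7 with only the groups compared. The cause of these shifts was not tested.

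The replicate block is a fit on numbers that were not shown to pair arrays. Correlations of the deviations of same-numbered arrays ran from -0.371 to 0.465 over 28 pairs of groups, 16 of them over 0.1, and 14 of 16 arrays correlated best with an array of their own number, a hint from the data and not from the design.

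With each array left out, the counts ran from 30 to 32 for Treg against Tconv, 28 to 31 in B6, 17 to 23 in NOD, 0 to 1 for NOD minus B6, 0 to 8 for fusion against ires in Treg, 0 to 4 in B6 Treg, 0 to 0 in NOD Treg, 0 to 0 for NOD minus B6 of the allele difference, 0 to 0 in Tconv, 0 to 5 for Treg minus Tconv, 20 to 27 for NOD against B6 in Treg and 3 to 15 in Tconv. Of the single-gene values under these fits, 1898 kept their direction and side of the threshold, 148 lost the call and 2 reversed: Pcna between Treg and Tconv, which was never called, ran from -0.0971 to 0.001, the latter without the second B6 ires Tconv array, and was 0.0006 without the first B6 ires Treg array. Over all tested genes, quantile normalization gave 2033 higher and 2400 lower in Treg than in Tconv, where the main setting gave 2138 and 1526, and centring on array medians gave 1660 higher and 688 lower in NOD than in B6 Treg, where the main setting gave 1433 and 1257. Within B6 quantile normalization gave 1660 higher and 1640 lower in Treg (main 1804 and 862), and centring gave 1844 higher and 339 lower in NOD than in B6 Tconv (main 1202 and 831). Between alleles, centring gave 38 higher and 10 lower in fusion Treg (main 51 and 27), and quantile normalization 25 and 10 in B6 fusion Treg (main 37 and 7).

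Levels near the filter, 6.06, limit Bub1, Nuf2, Nusap1, Cenpe and Cenpf, which lay above it on Treg arrays alone.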
